A study of Mus musculus with 6 samples.

Results

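The proteasome genes of muscle stem cells (MuSCs, which lie beside the fibres of skeletal muscle and rebuild them after injury) were examined in freshly isolated control and Taf4asKO cells. They are the protein-coding genes of the expression table whose symbol starts with Psma, Psmb, Psmc, Psmd, Psme, Psmf or Psmg followed by a digit. This rule used no expression value and found 49 of 22081 genes, and all 49 reached the mean level of 5 needed for testing, among 18562 genes tested. Total RNA of sorted cells was sequenced in 6 libraries, 3 labelled MuSC_WT (genotype Control) and 3 labelled as the Taf4a knockout, to ask what the loss of TAF4A does to gene expression in these cells. TAF4A, encoded by Taf4 (formerly Taf4a), is a subunit of the general transcription factor TFIID. All mice had a C57BL/6 background, were adults of 8 to 20 weeks of both sexes, and carried a floxed Taf4a gene in control and mutant alike. Taf4asKO mice also carried a tamoxifen-inducible Cre recombinase under Pax7 and received tamoxifen, which deletes exons 11 to 12 in Pax7-expressing cells. According to the study's methods, controls were littermates that lacked the Cre or carried it. Which of these the sequenced controls were, and whether they received tamoxifen, is not stated in the sources used here. If they did not, an effect of the drug cannot be told apart from that of the deletion. About 90000 cells sorted as Itga7+ or Pax7-ZsGreen+ and Sca1-, CD45- and CD31- gave RNA, of which 10 ng entered each library, and the stated purity of the sort was 70% to 80%.

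The proteasome is the protease complex that breaks down proteins marked with ubiquitin in the cytosol and nucleus. Its 20S core is a barrel of alpha subunits, which form the entry gates, and beta subunits, some of which cut peptide bonds, and the 19S regulator on its ends binds, unfolds and feeds in the substrate. Inducible beta subunits can replace the cutting ones to form the immunoproteasome, known for making peptides for antigen presentation, and dedicated chaperones assemble the complex before it works.

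By these roles, the 49 genes comprised 7 alpha and 7 constitutive beta subunits of the 20S core, 4 inducible or thymus-type beta subunits, 6 ATPases and 11 other subunits of the 19S regulator, 6 activators or inhibitors and 7 assembly factors. The remaining gene, Psmc3ip, encodes a factor of meiotic recombination that binds Psmc3 and is no part of the complex.

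Of the 31 constitutive subunit genes of the 20S core and the 19S regulator, 0 passed the threshold described next, with log2 fold changes from -0.35 to 0.27. Without control replicate 2, the highest control for 30 of the 31, 4 of them passed as higher, where 8.62% of all genes did. Without control replicate 3, the lowest control for 26 of the 31, 0 of them passed, where 11.7% of all genes did. Among the 49 genes, 1 passed the threshold (limma, Benjamini-Hochberg adjusted p under 0.05 over all genes tested and a change of at least 1.3-fold), where 12.6% of all genes did. That gene was Psmg4, an assembly chaperone, which was lower in Taf4asKO MuSCs, as 6.71% of all genes were, and no proteasome gene was called higher, where 5.93% of all genes were. Psmd5, another assembly factor, and Psmb8, an inducible beta subunit, had higher values in Taf4asKO libraries. Both passed the threshold when libraries with the same replicate number were treated as pairs, a pairing that the labels do not state. With this pairing 18.1% of all genes passed and 9.09% of all genes passed as higher. The median log2 fold change of the 49 genes was 0.08, beside 0.004 over all genes tested, and their values ran from -1.01 to 0.79. Of the 49 genes, 31 had a log2 fold change above 0, where 50.4% of all genes did, and 5 had an unadjusted p under 0.05, where 28.8% of all genes did.

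The promoters of the 4 genes with the lowest p-values are shown, to set the sequence beside the genes on which the comparison turns. They are RefSeq sequences of build GRCm38.p6, from 250 bases before to 50 bases after the start of the transcript, written 5' to 3' on the strand of the gene. Capitals mark matches to the 6 motifs searched on both strands. These were CCAAT (bound by NF-Y), TGACNNNGC (the core bound by NFE2L1 with small Maf proteins), GGGCGG (the box of Sp1 factors), CCGGAAG (of the ETS family), the double GAAA motif (GAAA, any 2 bases and again GAAA, as interferon regulatory factors bind) and TTCNNNGAA (the motif of STAT factors). Psmg4 is at chr13:34162714-34163013 on the plus strand, Psmd5 at chr2:34870913-34871212 on the minus strand, Psmb8 at chr17:34197945-34198244 on the plus strand and Psmb9 at chr17:34187281-34187580 on the minus strand.
Psmg4: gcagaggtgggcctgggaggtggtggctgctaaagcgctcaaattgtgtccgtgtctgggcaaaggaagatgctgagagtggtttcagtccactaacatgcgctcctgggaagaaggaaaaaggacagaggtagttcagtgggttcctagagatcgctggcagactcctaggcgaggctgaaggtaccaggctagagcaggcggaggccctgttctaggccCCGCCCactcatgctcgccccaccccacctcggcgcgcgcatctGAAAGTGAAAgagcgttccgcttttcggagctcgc
Psmd5: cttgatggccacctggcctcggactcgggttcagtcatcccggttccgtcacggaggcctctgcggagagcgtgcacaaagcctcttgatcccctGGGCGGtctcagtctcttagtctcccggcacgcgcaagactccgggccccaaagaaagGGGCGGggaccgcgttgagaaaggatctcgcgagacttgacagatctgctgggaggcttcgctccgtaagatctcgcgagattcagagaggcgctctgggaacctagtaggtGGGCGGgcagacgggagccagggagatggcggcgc
Psmb8: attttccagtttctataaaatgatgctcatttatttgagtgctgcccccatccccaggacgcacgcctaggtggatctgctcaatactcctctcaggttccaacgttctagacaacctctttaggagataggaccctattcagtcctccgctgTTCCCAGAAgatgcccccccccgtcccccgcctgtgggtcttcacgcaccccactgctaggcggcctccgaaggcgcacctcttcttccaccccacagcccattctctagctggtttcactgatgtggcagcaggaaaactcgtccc
Psmb9: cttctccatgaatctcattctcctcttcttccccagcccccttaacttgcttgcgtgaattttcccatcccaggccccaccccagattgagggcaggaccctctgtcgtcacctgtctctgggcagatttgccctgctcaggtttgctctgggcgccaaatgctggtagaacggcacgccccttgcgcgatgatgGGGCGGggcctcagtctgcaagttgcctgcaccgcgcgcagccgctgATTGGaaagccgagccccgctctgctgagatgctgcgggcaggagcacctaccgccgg
The Psmg4 window held GGGCGG on the opposite strand, 29 bases before the start, and the double GAAA motif 15 bases after it, and no CCAAT. The Psmd5 window held GGGCGG at 3 places, the Psmb8 window held a match to TTCNNNGAA, a motif that reads the same on both strands, and the Psmb9 window held GGGCGG and, 8 bases before the start on the opposite strand, CCAAT. In these windows no match overlapped a match to another motif.

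Promoter entries were found for 42 of the 49 genes, in 45 windows, and not for Psmb1, Psmb2, Psmb7, Psmc3, Psmd3, Psmd7 and Psmg2. CCAAT stood in 33.3% of the proteasome windows and in 37.0% of all 16038 windows of the same length. The motif TGACNNNGC stood in 13.3% and 14.3%, GGGCGG in 53.3% and 57.2%, and TTCNNNGAA in 6.67% and 6.77%. CCGGAAG stood in 35.6% of the proteasome windows and 14.6% of all windows, and the double GAAA motif in 11.1% and 3.01%. These matches are descriptions of the letters and not of binding.

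**Figure D1:**
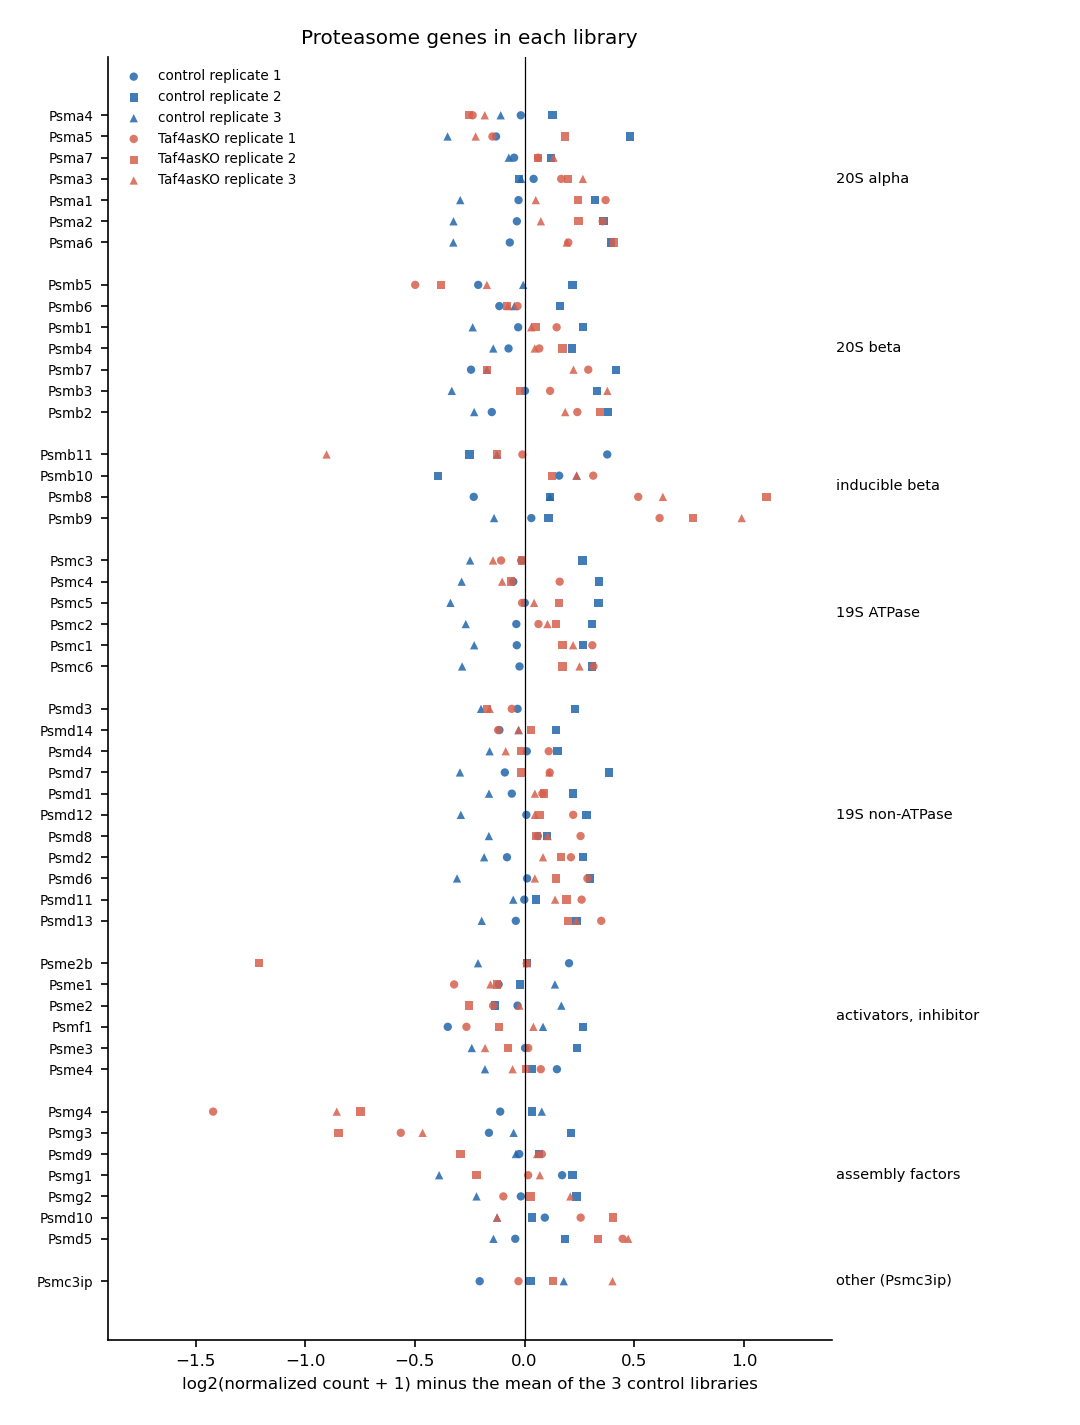
Each row is a proteasome gene and each point a library (blue control, red Taf4asKO, with a marker shape for each replicate number), plotted as log2(normalized count + 1) minus the mean of the 3 control libraries, with genes ordered by fold change within each class. The red points of Psmg4 lie below all its blue points and those of Psmb8, Psmb9 and Psmd5 above them, while in most subunit rows the blue square (control replicate 2) lies furthest right and the blue triangle (control replicate 3) furthest left of the controls.

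Values are normalized counts, that is, reads per gene that the authors scaled per library and rounded. Normalized totals ran from 12338676 to 14551732 per library, and reads before scaling were not used here. The count of Taf4 was 613, 534 and 478 in control and 631, 565 and 574 in Taf4asKO replicates 1 to 3 (log2 fold change 0.13, limma adjusted p = 0.524). It sums all exons of the gene, so it does not check the deletion of exons 11 to 12. The 7 muscle stem cell markers searched were all present, with summed counts of 33397 to 34934 in control and 34994 to 37839 in Taf4asKO libraries. Behind these sums, 3 of the 7 markers fell, where 6.71% of all genes did, Myf5 (log2 fold change -0.85, limma adjusted p = 0.00134), Cdh15 (-0.52, adjusted p = 0.0209) and the sort marker Itga7 (-0.43, adjusted p = 0.0377), and 2 rose, where 5.93% did, Vcam1 (0.74, adjusted p = 0.00106) and Sdc4 (0.88, adjusted p = 0.00211), while Pax7 (-0.21, adjusted p = 0.161) and Calcr did not pass. The labels number the libraries but do not tie them to animals, so p-values measure the spread between these libraries, which may in part be technical. In bulk RNA, fewer cells of a type and less RNA per cell cannot be told apart.

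Psmg4 (ENSMUSG00000071451, chr13:34162964-34178173, plus strand) encodes a chaperone that acts with the product of Psmg3 in building the alpha ring of the core. Its normalized counts were 170, 188 and 194 in control and 68, 109 and 101 in Taf4asKO replicates 1 to 3. The groups did not overlap, as held in this direction for 16.4% of all genes tested, and the highest Taf4asKO library was below the lowest control library. The mean fell from 184 ± 12.5 to 92.7 ± 21.7 (SD, n = 3 each), a log2 fold change of -1.01 (limma SE 0.20, adjusted p = 0.00995), or a fold of 0.497 with a 95% interval of 0.366 to 0.675. Over the 18 alternative settings tried, its log2 fold change lay between -1.14 and -0.80 and it passed the threshold in each of them, with adjusted p from 0.00207 to 0.0325. No exon of another gene overlapped Psmg4 in GENCODE M21, and no 75-base word of its exons, the length of a read, occurred in another gene.

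Psmg3, its partner, had counts of 36, 47 and 39 in control and 27, 22 and 29 in Taf4asKO libraries. The groups did not overlap here either, and the log2 fold change of -0.63 (limma SE 0.26, adjusted p = 0.147) did not pass the test. Psmg1 and Psmg2, which encode the other pair of alpha-ring chaperones, had log2 fold changes of -0.04 and 0.05, with counts of 79 to 121 and 112 to 154 in control and 89 to 109 and 122 to 151 in Taf4asKO libraries. The counts of both genes thus overlapped between the groups, and the 95% intervals of their folds ran from 0.704 to 1.34 for Psmg1 and from 0.788 to 1.35 for Psmg2.

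Among the chaperones of the 19S base, which hold its ATPases until they join the core, Psmd5 (ENSMUSG00000026869, chr2:34849734-34870962, minus strand) had the highest fold change. Its counts were 239, 280 and 223 in control and 336, 311 and 342 in Taf4asKO libraries, so that the groups did not overlap. The means were 247.3 ± 29.4 and 329.7 ± 16.4 (SD, n = 3 each), a log2 fold change of 0.42 (limma SE 0.13, adjusted p = 0.0621), which did not pass the threshold. With libraries paired by number the adjusted p was 0.0488, and Psmd5 passed. Its adjusted p over the 18 alternatives ran from 0.0184, without control replicate 2, to 0.211. Psmd10 (gankyrin), a chaperone of the same step, had counts of 49, 47 and 42 in control and 55, 61 and 42 in Taf4asKO libraries (log2 fold change 0.18, limma SE 0.23, adjusted p = 0.665), and the lowest counts of the groups were equal. Psmd9, also a base chaperone, had a log2 fold change of -0.05, and 25.5% of its exon bases overlap a non-coding gene on the opposite strand. In all, 1 of the 7 assembly factors fell, 0 rose and 6 did not pass, near the 12.6% of all genes that passed. With the pairing 2 of 7 passed in opposite directions, where 18.1% of all genes passed.

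The inducible beta subunits Psmb8, Psmb9 and Psmb10 replace Psmb5, Psmb6 and Psmb7, which carry the chymotrypsin-like, caspase-like and trypsin-like activities of the core. None of these or of the thymus-type subunit Psmb11 passed the threshold in limma, 2 of the 4 had an unadjusted p under 0.05, where 28.8% of all genes did, and the limma-voom alternative also called 0 of 4. Psmb8 (ENSMUSG00000024338, chr17:34197790-34201454, plus strand) had counts of 43, 55 and 55 in control and 73, 110 and 79 in Taf4asKO libraries. All Taf4asKO values lay above the control values, as held in this direction for 16.6% of all genes tested. The log2 fold change was 0.75 (limma SE 0.23, adjusted p = 0.0577), a fold of 1.68 with a 95% interval of 1.18 to 2.4. With libraries paired by number the adjusted p was 0.0295, the lowest of the 18 alternatives, of which the highest was 0.244. Psmb8 also passed without control replicate 2 (adjusted p = 0.0496).

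Psmb9 (ENSMUSG00000096727, chr17:34181988-34187764, minus strand) had counts of 17, 18 and 15 in control and 26, 29 and 34 in Taf4asKO libraries. These groups did not overlap, and the log2 fold change of 0.79 (limma SE 0.29, adjusted p = 0.102), the highest of the 49 genes, did not pass. Psmb10 had counts of 87, 59 and 92 in control and 97, 85 and 92 in Taf4asKO libraries (log2 fold change 0.22, limma SE 0.21, adjusted p = 0.531). Its control replicate 2 was low, and the other control counts lay within the range of the Taf4asKO libraries. Psmb11, known from the cortex of the thymus, had counts of 16, 10 and 11 in control and 12, 11 and 6 in Taf4asKO libraries (log2 fold change -0.35, limma adjusted p = 0.625), the lowest level per length of the class.

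The constitutive partners were read in the same libraries. Psmb5 had counts of 71, 96 and 82 in control and 58, 63 and 73 in Taf4asKO libraries (log2 fold change -0.35, limma SE 0.20, adjusted p = 0.289). Psmb6 had counts of 471, 571 and 494 in control and 499, 483 and 484 in Taf4asKO libraries, a log2 fold change of -0.06. Psmb7 had counts of 135, 214 and 142 in control and 196, 142 and 187 in Taf4asKO libraries, a log2 fold change of 0.11, so that none of these 3 subunits was called. Of the 75-base words of Psmb5, 36.8% also occur in other genes, where reads that map to several places were removed, so its level is uncertain.

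Ratios of each inducible to its constitutive subunit within a library, which do not depend on the scaling between libraries, were therefore compared, with 1 added to each count for the tested log2 differences. Psmb8/Psmb5 was 0.606, 0.573 and 0.671 in control and 1.26, 1.75 and 1.08 in Taf4asKO libraries. Every Taf4asKO ratio was higher than every control ratio, with a log2 difference of 1.10 (2.15-fold). Psmb9/Psmb6 was 0.0361, 0.0315 and 0.0304 in control and 0.0521, 0.06 and 0.0703 in Taf4asKO libraries, again without overlap and with a log2 difference of 0.85 (1.81-fold). For both ratios the exact two-sided permutation p was 0.1, the smallest that 3 libraries against 3 allow, and 0.15 adjusted over the 3 pairs, so this test could not reach the threshold. Psmb10/Psmb7 was 0.644, 0.276 and 0.648 in control and 0.495, 0.599 and 0.492 in Taf4asKO libraries, a log2 difference of 0.11 with an exact permutation p of 1. The control ratios spanned those of Taf4asKO, and without control replicate 2 the difference was -0.29. Ratios are of counts and not of levels per length, and are compared between libraries only.

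**Figure D2:**
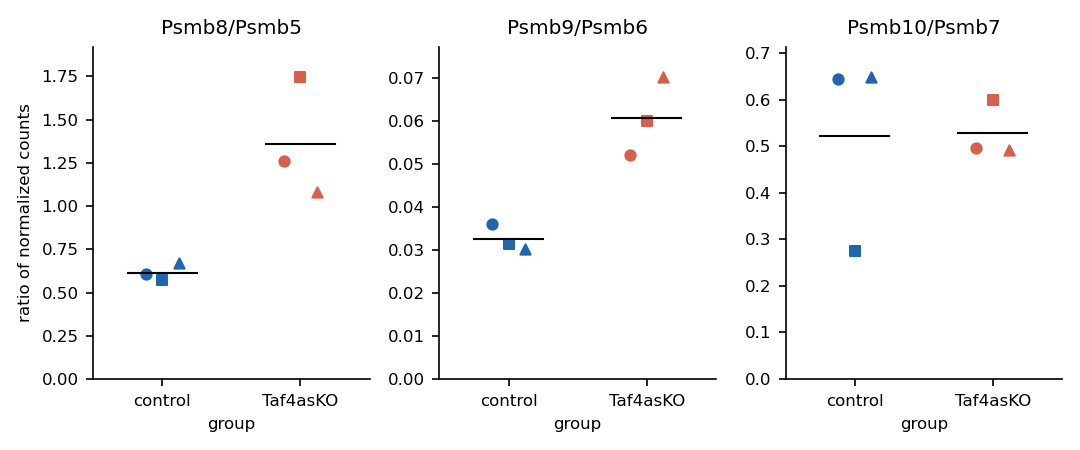
Points are the ratio of the normalized counts of an inducible to its constitutive beta subunit in each library, with black lines at the group means, and each panel has its own axis from 0. The 3 Taf4asKO points lie above the 3 control points for Psmb8/Psmb5 and Psmb9/Psmb6, and the groups overlap for Psmb10/Psmb7, where control replicate 2 (square) is lowest.

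Markers of some other cell types had summed counts that did not overlap between the groups either. Of 8 leukocyte markers, Cd68, Csf1r and Lyz2 had values and the others were not analysed here. Their sum was 422 to 538 in control and 666 to 924 in Taf4asKO libraries, with 0 of the 3 past the threshold in limma. The difference lay in Lyz2, since Cd68 and Csf1r overlapped between the groups. The sum of the 6 endothelial markers was 879 to 1277 in control and 1392 to 1700 in Taf4asKO libraries, also with 0 past the threshold. The sum of 5 Schwann cell markers was 1492 to 3353 in control and 3995 to 4820 in Taf4asKO libraries, with 4 higher (5.93% of all genes were). The sum of 6 fibro-adipogenic markers overlapped, with 9353 to 34080 in control and 20758 to 38571 in Taf4asKO libraries, and 1 was lower (6.71% of all genes were). Col1a1, with 5792 to 27768 in control and 16932 to 32958 in Taf4asKO libraries, made up most of this sum. Pdgfra did not overlap and was higher, with 49 to 152 in control and 160 to 247 in Taf4asKO libraries, as held in this direction for 16.6% of all genes. Dpt did not overlap and was lower, as held for 16.4%. With libraries paired by number, under which 18.1% of all genes passed and 9.09% passed as higher, more of these markers were called. The leukocyte marker Lyz2, the endothelial markers Cdh5 and Kdr, all 5 Schwann cell markers and 4 of the 6 fibro-adipogenic markers (Pdgfra, Dcn, Col1a1 and Lum) were higher. Dpt of the same list was lower in both fits (log2 fold change -1.69, limma adjusted p = 0.000136, with the pairing 2.79e-06). No marker with values was at 0 in any library. The part of these cells in the values of Psmb8 and Psmb9 was not tested. Of the exon bases of Psmb8, 14.7% overlap Gm20496 on the opposite strand, and the exons of Psmb9 share 212 bases with Tap1, also on the opposite strand. Whether the counting used the strand is not stated, and Tap1, the peptide transporter, had a log2 fold change of 0.18 (limma adjusted p = 0.575).

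The constitutive 20S core comprised 14 genes, of which 0 passed in limma, 0 had an unadjusted p under 0.05, and 0 were called by limma-voom. Over all genes tested 12.6% passed and 28.8% had an unadjusted p under 0.05, and these shares also stand beside the counts for the 19S subunits and the activators. Among the alpha subunits, Psma4 had counts of 714, 789 and 670 in control and 613, 606 and 637 in Taf4asKO libraries (log2 fold change -0.22, limma SE 0.10, adjusted p = 0.186). Its groups did not overlap, and it was the only one of the 14 with all Taf4asKO values below the control values. Psma5 had counts of 175, 268 and 150 in control and 173, 218 and 164 in Taf4asKO libraries, a log2 fold change of -0.06, and 35.2% of its 75-base words occur in other genes. Psma2 had counts of 291, 383 and 238 in control and 382, 354 and 314 in Taf4asKO libraries, a log2 fold change of 0.23. Psma6, the highest of the class, had counts of 329, 453 and 275 in control and 396, 458 and 394 in Taf4asKO libraries (log2 fold change 0.27, limma SE 0.17, adjusted p = 0.347). In these 3 genes the control libraries spread more widely than the Taf4asKO libraries. The other alpha subunits, Psma1, Psma3 and Psma7, had log2 fold changes of 0.08 to 0.22, and Psma3 did not overlap between groups, with 492 to 515 in control and 562 to 602 in Taf4asKO libraries.

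Among the beta subunits without a catalytic site, Psmb2 had counts of 202, 292 and 191 in control and 265, 285 and 255 in Taf4asKO libraries (log2 fold change 0.26, limma SE 0.17, adjusted p = 0.355). Psmb3 had counts of 120, 151 and 95 in control and 130, 118 and 156 in Taf4asKO libraries, a log2 fold change of 0.16. Psmb1 and Psmb4 had log2 fold changes of 0.08 and 0.10. The groups overlapped for all 7 constitutive beta subunits.

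The 6 ATPases Psmc1 to Psmc6 form the ring of the 19S regulator that unfolds substrates, and 0 of them passed in limma, 0 had an unadjusted p under 0.05 and 0 were called by limma-voom. Psmc3 had counts of 1016, 1233 and 864 in control and 953, 1018 and 929 in Taf4asKO libraries (log2 fold change -0.09, limma SE 0.13, adjusted p = 0.705). Psmc4 had counts of 404, 530 and 343 in control and 468, 401 and 390 in Taf4asKO libraries, a log2 fold change of -0.0017. The Taf4asKO counts of both genes lay within the control range. Psmc1 had counts of 507, 625 and 443 in control and 644, 586 and 606 in Taf4asKO libraries, a log2 fold change of 0.23. Psmc6 had counts of 626, 788 and 522 in control and 791, 717 and 757 in Taf4asKO libraries (log2 fold change 0.25, limma SE 0.14, adjusted p = 0.295). Of the Taf4asKO counts of Psmc1 and Psmc6, only the highest of each exceeded control replicate 2. Psmc2 and Psmc5 had log2 fold changes of 0.10 and 0.06.

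The 11 other 19S subunits include ubiquitin receptors, scaffolds and the deubiquitinase Psmd14, and again 0 passed in limma, 0 had an unadjusted p under 0.05 and 0 were called by limma-voom. Psmd14, which removes ubiquitin from substrates as they enter, had counts of 255, 305 and 271 in control and 254, 282 and 271 in Taf4asKO libraries (log2 fold change -0.04, limma SE 0.13, adjusted p = 0.874). Psmd3, a scaffold subunit, had counts of 769, 923 and 685 in control and 755, 698 and 704 in Taf4asKO libraries, a log2 fold change of -0.13. The groups overlapped for both. Psmd13, a subunit of the lid, had counts of 312, 378 and 280 in control and 409, 368 and 378 in Taf4asKO libraries (log2 fold change 0.26, limma SE 0.14, adjusted p = 0.237). Psmd11, a scaffold of the lid, had counts of 643, 668 and 621 in control and 771, 735 and 709 in Taf4asKO libraries, a log2 fold change of 0.20 (limma SE 0.10, adjusted p = 0.214), and was the one member of the class without overlap. The other 7 subunits, among them the ubiquitin receptor Psmd4 and the large scaffolds Psmd1 and Psmd2, had log2 fold changes from 0.0019 to 0.16.

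**Figure D3:**
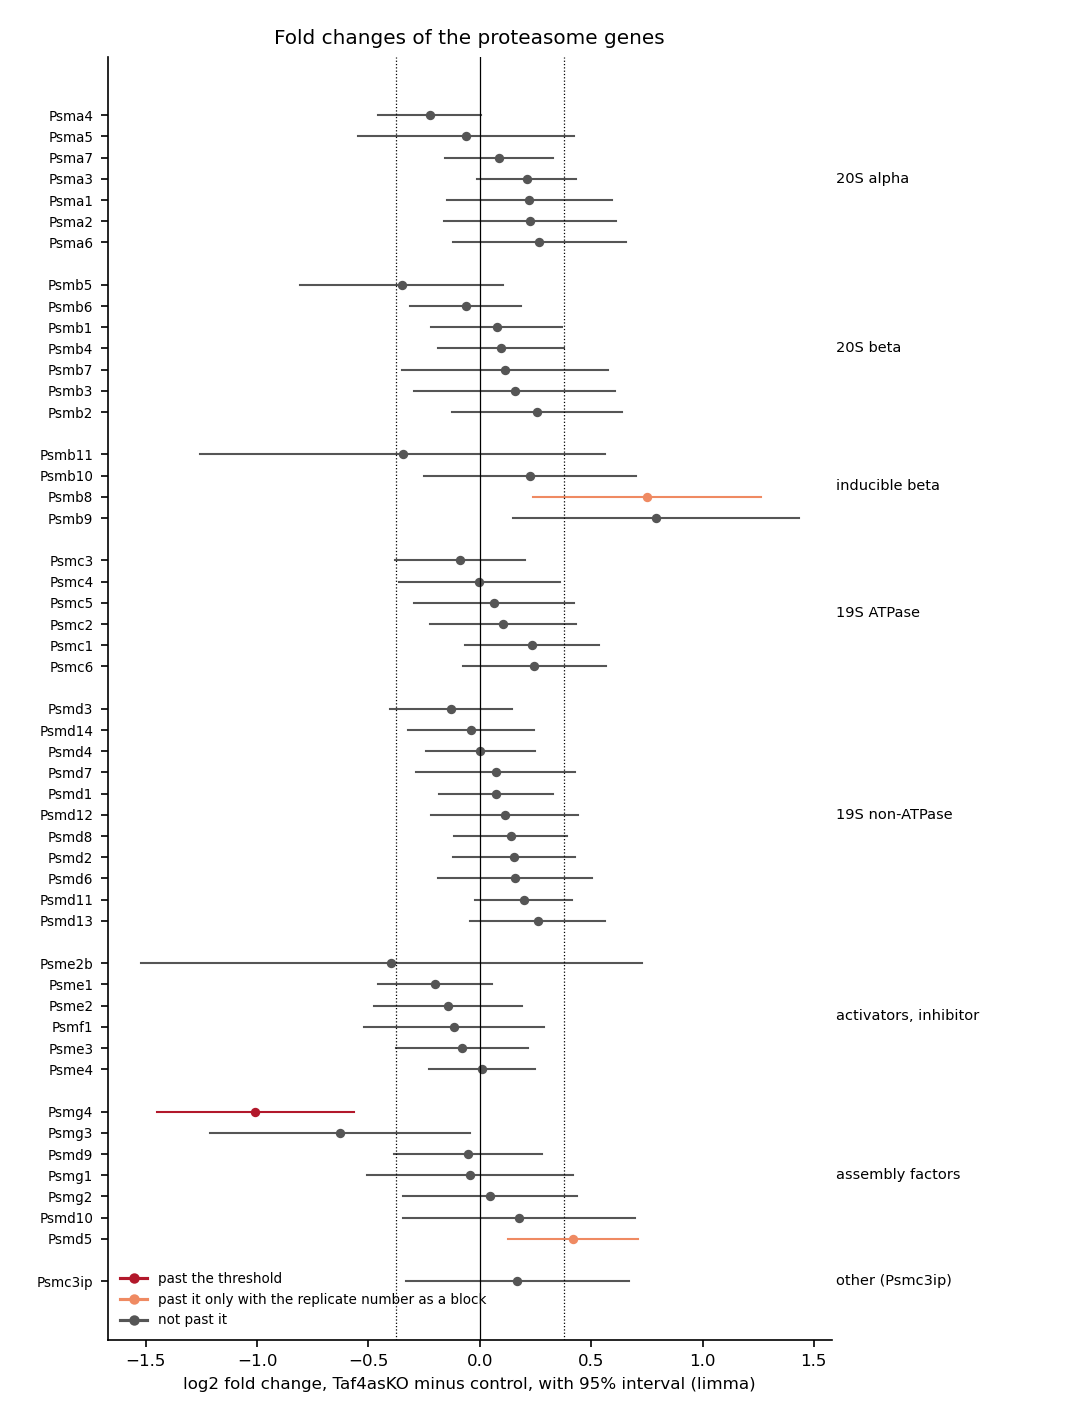
Points are log2 fold changes (Taf4asKO minus control) of the 49 genes with 95% intervals from limma, with 3 libraries a group and dotted lines at 1.3-fold in either direction. The interval of Psmg4 (red) lies wholly below the lower line, those of Psmd5 and Psmb8 (orange) lie above 0 and cross the upper line, and the points of all 31 constitutive subunits lie between the lines.

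Over the 31 constitutive subunits, log2 fold changes lay between -0.35 and 0.27, all under 1.3-fold, as were 57.9% of all genes tested. Their median was 0.10 and 23 of 31 were above 0. The 95% interval lay within 1.3-fold in both directions for 8 of the 31 genes, where 9.42% of all genes had such an interval, and the intervals of the other 23 reach past 1.3-fold, so that a change of that size is not excluded for them. With libraries paired by number, 12 of the 31 intervals lay within 1.3-fold, where 12.1% of all genes had such an interval, and 19 did not. Non-overlapping groups were seen in 3 of 31, 1 lower and 2 higher, beside 33% of all genes.

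The spread of these subunits between control libraries was shared among them. Control replicate 2 was the highest control library for 30 of the 31 subunits (96.8%), where it was for 40.4% of all genes tested. Control replicate 3 was the lowest for 26 of 31 (83.9%), where it was for 30.4% of all genes. In 26 of the 31 the whole order was replicate 2, then 1, then 3 (83.9%), as in 19.9% of all genes, and among the other 18 proteasome genes it was so in 6 (33.3%). The subunits thus moved together between libraries that carry the same label, and no test was made since genes of a library are not independent.

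The median deviation of the 31 subunits from their mean over the 6 libraries was -0.09, 0.23 and -0.27 on the log2 scale in control and 0.08, 0.05 and 0.01 in Taf4asKO replicates 1 to 3. The same median over all genes tested lay between 0.01 and 0.02 in every library. Summed counts of the 14 core genes were 4767, 5819 and 4414 in control and 5269, 5248 and 5143 in Taf4asKO libraries. The sums of the 17 genes of the 19S regulator were 10638, 12834 and 9369 in control and 11953, 11389 and 11170 in Taf4asKO libraries. Both sums of each Taf4asKO library lay between the lowest and the highest control library. The range was wider in control than in Taf4asKO for 29 of 31 subunits (93.5%), beside 68.1% of all genes, and the median SD of log2 values was 0.25 in control and 0.08 in Taf4asKO, beside 0.27 and 0.18 over all genes.

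**Figure D4:**
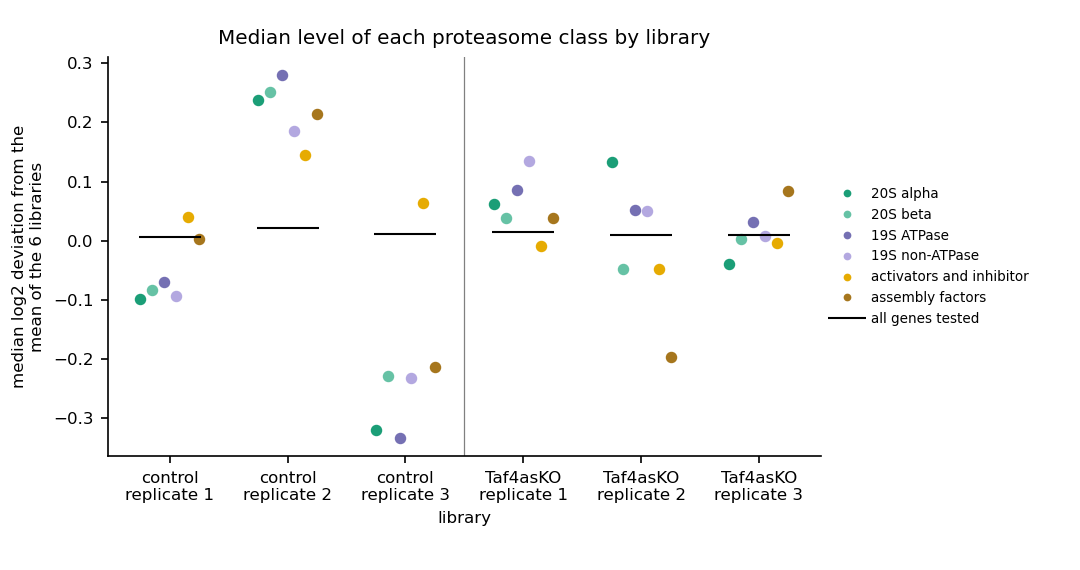
Each point is the median, over the genes of a class, of the log2 deviation from the mean of the 6 libraries, and black bars give the same over all genes tested. The core and 19S classes are highest in control replicate 2 and lowest in control replicate 3, while the black bars stay near 0.

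Several whole-library measures also differed between the controls. Ribosomal RNA made up 10.9%, 19.3% and 14.7% of the normalized counts in the controls and 12.74%, 17.49% and 16.01% in the Taf4asKO libraries. Mitochondrial genes made up 11.1%, 20.7% and 15.7% in the controls and 13.46%, 19.01% and 17.26% in the Taf4asKO libraries. The summed counts of 6 myofibre markers were 1193, 3772 and 1797 in control and 2656, 2712 and 2141 in Taf4asKO libraries, and control replicate 2 was the highest control for 6 of 6. These measures were highest in control replicate 2, as the subunits were, but were lowest of the controls in replicate 1 and not in replicate 3. Their part in the order of the subunits was not tested.

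Since control replicates 2 and 3 deviated most on the subunits, in opposite directions, the comparison was also made without each. Without control replicate 3, 1 of the 49 genes passed, Psmg4, where 11.7% of all genes did. Without control replicate 2, 7 of the 49 genes passed, as did 16.6% of all genes, with Psmg4 lower and 6 higher, and 8.62% of all genes were higher. The 6 were Psma6 (log2 fold change 0.46, limma adjusted p = 0.0391), Psmb2 (0.45, 0.0339), Psmc6 (0.40, 0.0385), Psmd13 (0.38, 0.0471), Psmd5 (0.51, 0.0184) and Psmb8 (0.81, 0.0496). Over all 18 alternatives the adjusted p ran from 0.0391 to 0.734 for Psma6, from 0.0339 to 0.668 for Psmb2, from 0.0385 to 0.669 for Psmc6 and from 0.0471 to 0.501 for Psmd13. The median of the 49 genes was 0.18 without control replicate 2 and -0.03 without control replicate 3, beside 0.08 with all libraries, so that its sign depended on which control was left out. Without control replicate 2, the log2 fold changes of Psma5, Psmb6, Psmc3, Psmc4, Psmd14 and Psme3 were above 0 and not below it.

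The activators open the gate of the core in place of the 19S regulator, and Psmf1 is described as an inhibitor. None of these 6 genes passed in limma, 0 had an unadjusted p under 0.05, and 0 were called by limma-voom. Psme1, which forms the PA28 ring with Psme2, had counts of 548, 587 and 655 in control and 476, 545 and 534 in Taf4asKO libraries (log2 fold change -0.20, limma SE 0.11, adjusted p = 0.276), without overlap. Psme3, the nuclear PA28 subunit, had counts of 689, 812 and 582 in control and 696, 653 and 607 in Taf4asKO libraries, a log2 fold change of -0.08. Psme4, which encodes the activator PA200, had counts of 1567, 1448 and 1248 in control and 1489, 1421 and 1362 in Taf4asKO libraries, a log2 fold change of 0.01. The Taf4asKO counts of these last genes lay within the control range. Psme2b, an intronless copy of Psme2, had counts of 7, 6 and 5 in control and 6, 2 and 6 in Taf4asKO libraries, and 60.2% of its 75-base words occur in Psme2. Psme2 and Psmf1 had log2 fold changes of -0.14 and -0.11, and Psmc3ip, outside the complex, 0.17. Of the activators and the inhibitor, 5 of 6 were below 0, where 9198 of the 18562 genes tested were. The sign of Psme2b, Psme3 and Psme4 changed in at least 1 fit that left out a library.

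Levels per kb of exon, in normalized counts over the exon length of GENCODE M21, allow only a rough comparison of the genes with each other. In control MuSCs the alpha subunits ran from 82.8 for Psma2 to 305.6 for Psma4, a range of 3.69-fold, although the core holds them in equal number. The constitutive beta subunits ran from 47.8 for Psmb7 to 273.5 for Psmb6, the ATPases from 79.6 for Psmc2 to 398.0 for Psmc3 and the other 19S subunits from 95.8 for Psmd13 to 390.6 for Psmd4. The inducible and thymus-type subunits ran from 2.57 for Psmb11 to 46.5 for Psmb10, and Psmb10 was above Psmb7 in control replicates 1 and 3 and below it in control replicate 2. Exon length counts the exons of all transcripts of a gene, so it can be longer than any single transcript. It was 5031 bases for Psmc2 and 1394 for Psmc5, and 555 for Psmg4 and 7230 for Psmd5. How far these lengths set the ranges and the order of the genes was not tested. In GENCODE M21, 33 of the 49 genes had the same start and end as in the table.

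**Figure D5:**
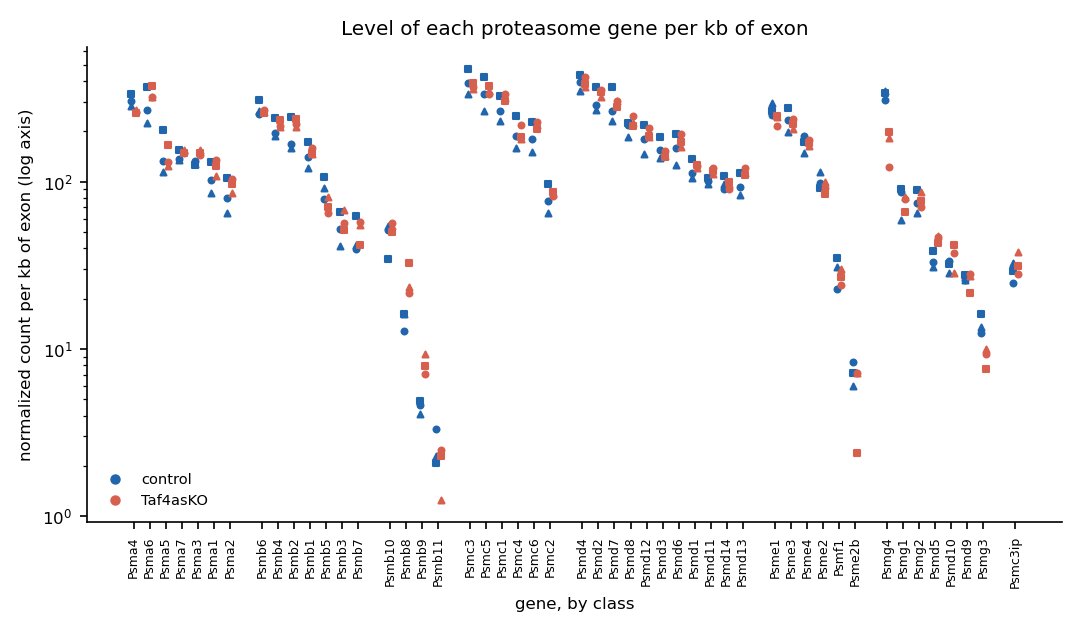
Each point is a library (blue control, red Taf4asKO), plotted as the normalized count per kb of exon on a log axis, with genes ordered within each class by their control mean. Psmb11, Psmb9, the activator copy Psme2b and the assembly factor Psmg3 lie lowest in control, and Psmg4 is highest among the assembly factors in control.

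Other genes of the pathway were read from a list of 37 genes with values: further components, receptors and enzymes at the proteasome, regulators of proteasome genes, ubiquitin genes and genes of peptide loading. Of these, 4 rose, where 5.93% of all genes tested did, 3 fell, where 6.71% did, and 30 did not pass. Those that rose were Uchl5 (log2 fold change 0.67, limma SE 0.19, adjusted p = 0.0468), a deubiquitinase at the 19S regulator, Nfe2l2 (0.53, SE 0.12, adjusted p = 0.0172), a transcription factor of the oxidative stress response, Ubb (0.53, SE 0.09, adjusted p = 0.00431), a polyubiquitin gene, and B2m (0.69, SE 0.13, adjusted p = 0.00756), the light chain of class I antigen-presenting molecules. Those that fell were Ubqln4 (-0.55, SE 0.15, adjusted p = 0.0371), a shuttle of ubiquitinated proteins, Vcp (-0.41, SE 0.12, adjusted p = 0.046), an ATPase that extracts such proteins, and Rps27a (-0.89, SE 0.11, adjusted p = 0.000998), which encodes ubiquitin fused to a ribosomal protein. The count of 7 was 4 without control replicate 1, Taf4asKO replicate 1 or Taf4asKO replicate 3, and 3 without Taf4asKO replicate 2. In these fits 9.24%, 6.72%, 5.14% and 5.25% of all genes passed, also fewer than with all libraries. Nfe2l1, the transcription factor known to raise proteasome genes when the complex is inhibited, had a log2 fold change of 0.07 (SE 0.10, adjusted p = 0.692). The median over the 37 genes was 0.15, beside 0.004 over all genes tested. Among the 8 genes of peptide loading, which the immunoproteasome supplies, 1 rose (5.93% of all genes), 7 did not pass, and 7 had a log2 fold change above 0 (50.4% of all genes).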

How the data were processed

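Total RNA of sorted MuSCs was sequenced as stranded single-end reads of 75 bases in 3 control and 3 Taf4asKO libraries. Per the submitters' processing notes and the study's methods, the authors used Trimmomatic 0.39, STAR 2.6.0c (mm10) and featureCounts 1.6.0 over exons, removed reads mapping to several places or genes, and normalized with DESeq2 1.14.1. Whether the strand was used in counting is not stated. The deposited values are a score, reads divided by a size factor and rounded to whole numbers, inferred from whole numbers that are missing in some columns (9 of those up to 60 in control replicate 1). They carry no raw depth, so no count model was used. The table had 0 value columns without a sample.

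R 4.3.3 with limma 3.58.1 tested genes with a mean of at least 5 (intensity trend, two-sided, no covariate) on log2(value + 1), which understates changes of low genes, with a threshold of adjusted p under 0.05 (Benjamini-Hochberg over 18562 genes) and 1.3-fold. Limits follow the study's methods. The test was checked on simulated data. Genes are named, with values in every library, where they passed the threshold, are among the 2 lowest or 2 highest fold changes of their class, or form the beta subunit pairs. The genes and lists were chosen with earlier results of these data known. The shared replicate numbers of the labels were checked: after subtracting group means, libraries sharing a number correlated across genes at 0.23, 0.13 and 0.15. Libraries with unlike numbers correlated at -0.15 to 0.01. The deviations within a group are not independent, which ties these correlations together, and the labels state no pairing. The check therefore cannot show that the pairs are real, and the numbers were used as pairs in an alternative fit only. Alternatives were other scalings, pseudocounts, filters, limits, fits and leaving out each library. Gene positions are those of the table, and exons are from GENCODE M21. Python 3.11.15 and matplotlib 3.10.9 drew the plots.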

Additional observations from a re-analysis of the deposited data

How the results depend on the processing

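Of 517 values of the 29 named proteasome genes under 18 alternatives, 490 kept their direction and their side of the threshold, 10 came to pass it and 17 changed sign. Psmg4 passed under all 18. With the replicate block, 3 proteasome genes passed instead of 1, with 2 of the assembly factors and 1 inducible beta subunit, and the block changed no other call among the 49 genes. With totals taken without ribosomal RNA and mitochondrial genes, and with a filter at a mean of 50, 2 proteasome genes passed, both assembly factors (Psmd5 and Psmg4), where 13.2% and, with 44 of the 49 genes tested, 19% of all genes did. Leaving out 1 library gave 1 to 7 proteasome genes, 1 to 2 assembly factors, 0 to 1 in the alpha, beta, inducible, ATPase and non-ATPase classes, 3 to 8 pathway genes and 956 to 3096 of all genes. At a fold limit of 1.5 or an adjusted p limit of 0.01, 3 pathway genes passed, where 9.44% and 4.72% (876) of all genes did. The direction turned for Psme4 with upper-quartile scaling (-0.0302) and for Psmc4 without ribosomal RNA and mitochondrial genes (0.00821). Leaving out 1 library moved Psmb10/Psmb7 between -0.29 and 0.32. It also moved Psmb7 between -0.00853 and 0.32, Psma5 between -0.24 and 0.18, Psmb6 between -0.12 and 0.0185, Psmc3 between -0.21 and 0.044, Psmc4 between -0.15 and 0.17, Psmd14 between -0.10 and 0.0318, Psme3 between -0.20 and 0.0398, Psmb3 between -0.00911 and 0.32, Psme4 between -0.082 and 0.0821 and Psme2b between -0.60 and 0.00992. Without a change of sign, leaving out 1 library moved Psma2 between 0.0633 and 0.41 and Psmc1 between 0.12 and 0.37. Psmb10 moved between 0.0274 and 0.34, Psmd10 between 0.0651 and 0.33 and Psmd3 between -0.23 and -0.0144. The cause of these shifts was not tested. With 3 libraries a group, the 95% interval lay within 1.3-fold for 8 of the 31 constitutive subunits and for 12 with the replicate block. For the others a change of that size is not excluded.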

Other observations

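Psmg4 lies on chromosome 13 next to Slc22a23, a transporter gene on the opposite strand whose end is 0.985 kb from that of Psmg4. Of 12 tested genes within 250 kb of Psmg4, 4 passed the threshold in limma, where 12.6% of all genes tested did. Slc22a23 fell (log2 fold change -0.81, SE 0.20, adjusted p = 0.0248), as did Tubb2b, a beta-tubulin gene 32.6 kb away (-1.31, SE 0.15, adjusted p = 0.000648). Tubb2a (0.65, adjusted p = 0.0138) and Bphl (0.64, adjusted p = 0.0299) rose. Around Psmb8, 4 of 18 tested neighbours passed, 1 of them lower, and around Psmd5 0 of 7 passed in limma, beside the same 12.6%. Near Psmb8, Rps18 fell (-0.62, adjusted p = 0.0101). H2-DMa (1.48, adjusted p = 0.0266, mean count 22.7), Brd2 (0.46, adjusted p = 0.0403) and Ring1 (0.39, adjusted p = 0.0429) rose.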
